A study of Mus musculus with 73 samples.

Results

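Imprinted genes are expressed mainly from one parental copy, and 35 of them, spread over 17 imprinted clusters, were followed in the RNA of male mouse embryonic stem (ES) cells. They were chosen by name, as the rows of 35 imprinted genes among the 37310 gene identifiers of the RNA count table, and all 35 had a row in each of the 12 RNA libraries. The list was made with earlier results of these data known, so shares of members set beside all genes are descriptions only. Of these genes 19 are known to be paternally expressed, 15 maternally expressed, and 1, Gnas, gives transcripts of different parental origin. After the filter on low counts 31 members were tested, and Kcnq1, Rtl1, Slc22a3 and Rasgrf1 were too low.

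The study edited the X-inactivation centre, where Xist and its antisense partner Tsix lie, in E14Tg2a, a male (XY) ES cell line of the strain 129/Ola, and used RNA-seq beside maps of chromosome folding. RNA came from 4 libraries of the allele 40kb [Tsix-Xist], with 2 wild-type libraries labelled as corresponding to it, and from 4 libraries of the allele 70kb [Xite-Jpx], with 2 wild-type libraries of its own. Each allele was carried by 2 clones with 2 replicates each, clones 2G1 and 3D5 for the 40kb allele and 18C6 and 20E7 for the 70kb allele, and each clone is a single derivation. All groups, wild type included, were undifferentiated cells (day 0) grown without feeder cells on gelatin, in medium with serum and leukemia inhibitory factor. The labels do not say whether the 2 alleles are inversions or deletions, and the edited region lies on the X chromosome, away from the imprinted clusters. Nothing in the labels says that replicates were separate cultures, so p-values measure the spread between these libraries, which may be technical.

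Imprinted genes lie in clusters under the control of a region that is methylated on one parental copy only, a mark set in the germ line and kept afterwards by ZFP57, TRIM28 and the maintenance methyltransferase DNMT1. The clusters often pair protein genes of one parental origin with a noncoding RNA of the other, such as Igf2 with H19, Dlk1 with Meg3, and Igf2r with Airn. Many imprinted genes act on growth, and in cultured ES cells imprints are known to differ between lines and subclones. The counts here add both parental copies of a gene, so the expressed copy is given from textbook knowledge and was not measured.

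Library totals ran from 34514493 to 46605508 counts. Levels are given as CPM, that is counts relative to the TMM-scaled library size, and they are compared between libraries for 1 gene at a time, since a longer gene collects more counts at the same abundance. A gene was called where the adjusted p of edgeR's quasi-likelihood test, Benjamini-Hochberg over 16636 genes, was under 0.05. Each log2 fold change has a standard error (SE), worked back from the test as the absolute log2 fold change over the square root of the F statistic. The SE is thus not a measure separate from the p-value. The libraries correlated with each other at 0.952 to 0.997 over all tested genes. Whether reads were assigned by strand is not stated in the sources used here, so reads of members that overlap another gene (Airn, Mest, Copg2, Nnat, Zrsr1, Gnas) may include that gene's.

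In the 40kb comparison, 7 of the 31 tested members fell and none rose: Igf2, Peg10, Sgce, Peg12, Magel2, Gnas and H13. Among all 16636 genes 6.43% were called, 5.67% lower and 0.763% higher, against 22.6% of the tested members. The paternally expressed members held 5 of the 7 calls, of 17 tested, and the maternally expressed ones 1, H13, of 13 tested. The median log2 fold change was -0.88 over the paternally expressed members and -0.01 over the maternally expressed members, beside 0.06 over all genes. Whether the parental classes differed was not tested.

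**Figure D1:**
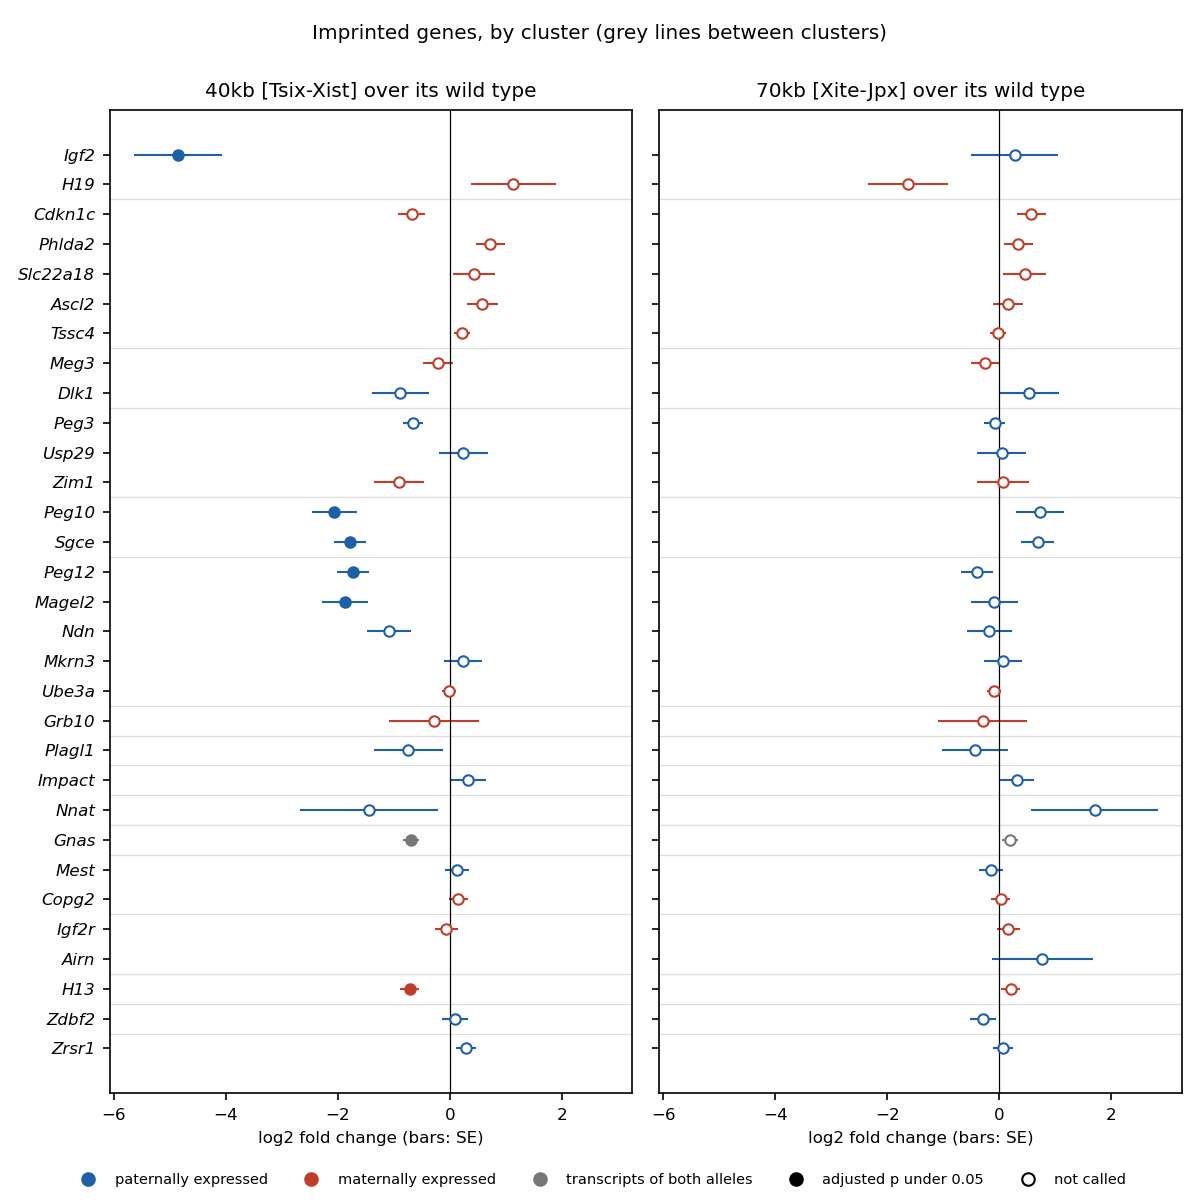
Log2 fold change of each tested member (x axis) in the 40kb comparison (left) and the 70kb comparison (right), listed by imprinted cluster; points are fitted values, bars are SE, colours give the expressed parental copy and filled points have an adjusted p under 0.05. Filled points are all left of 0 in the 40kb panel, from -0.69 for Gnas to -4.85 for Igf2, and no point is filled in the 70kb panel; Airn is left out of the 40kb panel because those libraries held 2 of its counts in all.

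Igf2 (ENSMUSG00000048583.9), the paternally expressed fetal growth factor, fell the most among the called members. It had 0.480 and 1.65 CPM in 40kb clone 1 and 2.52 and 5.20 CPM in 40kb clone 2, against 63.0 and 78.4 CPM in wild type. The log2 fold change was -4.85 (SE 0.79, adjusted p = 0.0175), 28.9-fold lower, with all 4 clone libraries below both wild-type libraries. H19, the maternally expressed noncoding RNA of the same cluster, had 1.67 and 0.841 CPM in 40kb clone 1 and 4.75 and 6.77 CPM in 40kb clone 2, against 1.35 and 1.85 CPM in wild type. Only clone 2 lay above wild type for H19, and the log2 fold change of 1.13 (SE 0.76) was not called (adjusted p = 0.389). In these bulk libraries fewer cells of a type and less RNA per cell cannot be told apart.

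Peg10 and Sgce, paternally expressed neighbours that start head to head at a shared methylated region, both fell. Peg10 (ENSMUSG00000092035.1), a protein derived from a retrotransposon and needed for the placenta, had 86.2 and 255 CPM in 40kb clone 1 and 284 and 275 CPM in 40kb clone 2, against 873 and 1007 CPM in wild type. Its log2 fold change was -2.06 (SE 0.40, adjusted p = 0.0199), and the first replicate of clone 1 lay well below the other 3 clone libraries. Sgce (ENSMUSG00000004631.9), which encodes epsilon-sarcoglycan, had 2.38 and 2.74 CPM in 40kb clone 1 and 1.83 and 2.94 CPM in 40kb clone 2, against 8.26 and 8.76 CPM in wild type. The Sgce libraries did not overlap either, at log2 fold change -1.78 (SE 0.28, adjusted p = 0.0167).

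Of the 5 members of the Snrpn cluster, the region of the Prader-Willi and Angelman syndromes in human, 2 fell, both paternally expressed. Peg12 (ENSMUSG00000070526.2), a FRAT family gene linked to Wnt signalling, had 0.548 and 1.06 CPM in 40kb clone 1 and 0.643 and 0.951 CPM in 40kb clone 2, against 2.33 and 2.96 CPM in wild type, with log2 fold change -1.73 (SE 0.28, adjusted p = 0.0175). Magel2 (ENSMUSG00000056972.5), a MAGE family gene, had 0.525 and 1.57 CPM in 40kb clone 1 and 0.965 and 1.09 CPM in 40kb clone 2, against 3.64 and 3.97 CPM in wild type, with log2 fold change -1.88 (SE 0.41, adjusted p = 0.0250). Both genes had every clone library below wild type. Ndn, which encodes the MAGE protein necdin, averaged 5.46 ± 2.45 CPM in 40kb libraries (SD, n = 4), against 10.4 and 12.7 CPM in wild type. Its libraries did not overlap, but the log2 fold change of -1.08 (SE 0.39) was not called (adjusted p = 0.120). Mkrn3, a makorin ring finger gene, averaged 6.90 ± 2.17 CPM in 40kb libraries, against 5.86 ± 1.098 CPM in wild type (log2 0.24, SE 0.34, adjusted p = 0.712). Ube3a, a ubiquitin ligase that is maternally expressed in neurons, averaged 100.9 ± 13.5 CPM in 40kb libraries, against 102 ± 0.168 CPM in wild type (log2 -0.01, SE 0.13, adjusted p = 0.962). Snrpn, Snurf and Snhg14 of this cluster belonged to the list of cluster neighbours given further on, and none of them was called. Of the listed neighbours 8 had no row in the count table.

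Gnas and H13 fell by less than the other called members. Gnas (ENSMUSG00000027523.12), which encodes the stimulatory G protein alpha subunit and whose count adds maternal, paternal and biallelic transcripts, had 153 and 168 CPM in 40kb clone 1 and 176 and 194 CPM in 40kb clone 2, against 251 and 306 CPM in wild type. The log2 fold change was -0.69 (SE 0.14, adjusted p = 0.0209), 1.61-fold lower. H13 (ENSMUSG00000019188.9), the signal peptide peptidase gene, had 25.6 and 23.8 CPM in 40kb clone 1 and 30.8 and 32.8 CPM in 40kb clone 2, against 43.3 and 49.5 CPM in wild type, 1.64-fold lower (log2 -0.72, SE 0.17, adjusted p = 0.0289). Neither gene overlapped between the groups. Mcts2, a paternally expressed gene within an intron of H13, was looked at for that position and had 37.5 and 27.2 CPM in 40kb clone 1 and 14.9 and 14.8 CPM in 40kb clone 2, against 12.6 and 14.6 CPM in wild type. With both clones together it was not called (log2 0.80, SE 0.32, adjusted p = 0.158). In clone 1 it rose (log2 1.25, SE 0.19, adjusted p = 0.0056), where H13 fell (log2 -0.91, SE 0.15, adjusted p = 0.0074), and in clone 2 neither was called (log2 0.13 for Mcts2, SE 0.19, and -0.55 for H13, SE 0.15). H13 was called in 9 of 19 alternative settings, against 12 to 14 of 19 for the other 6 members.

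**Figure D2:**
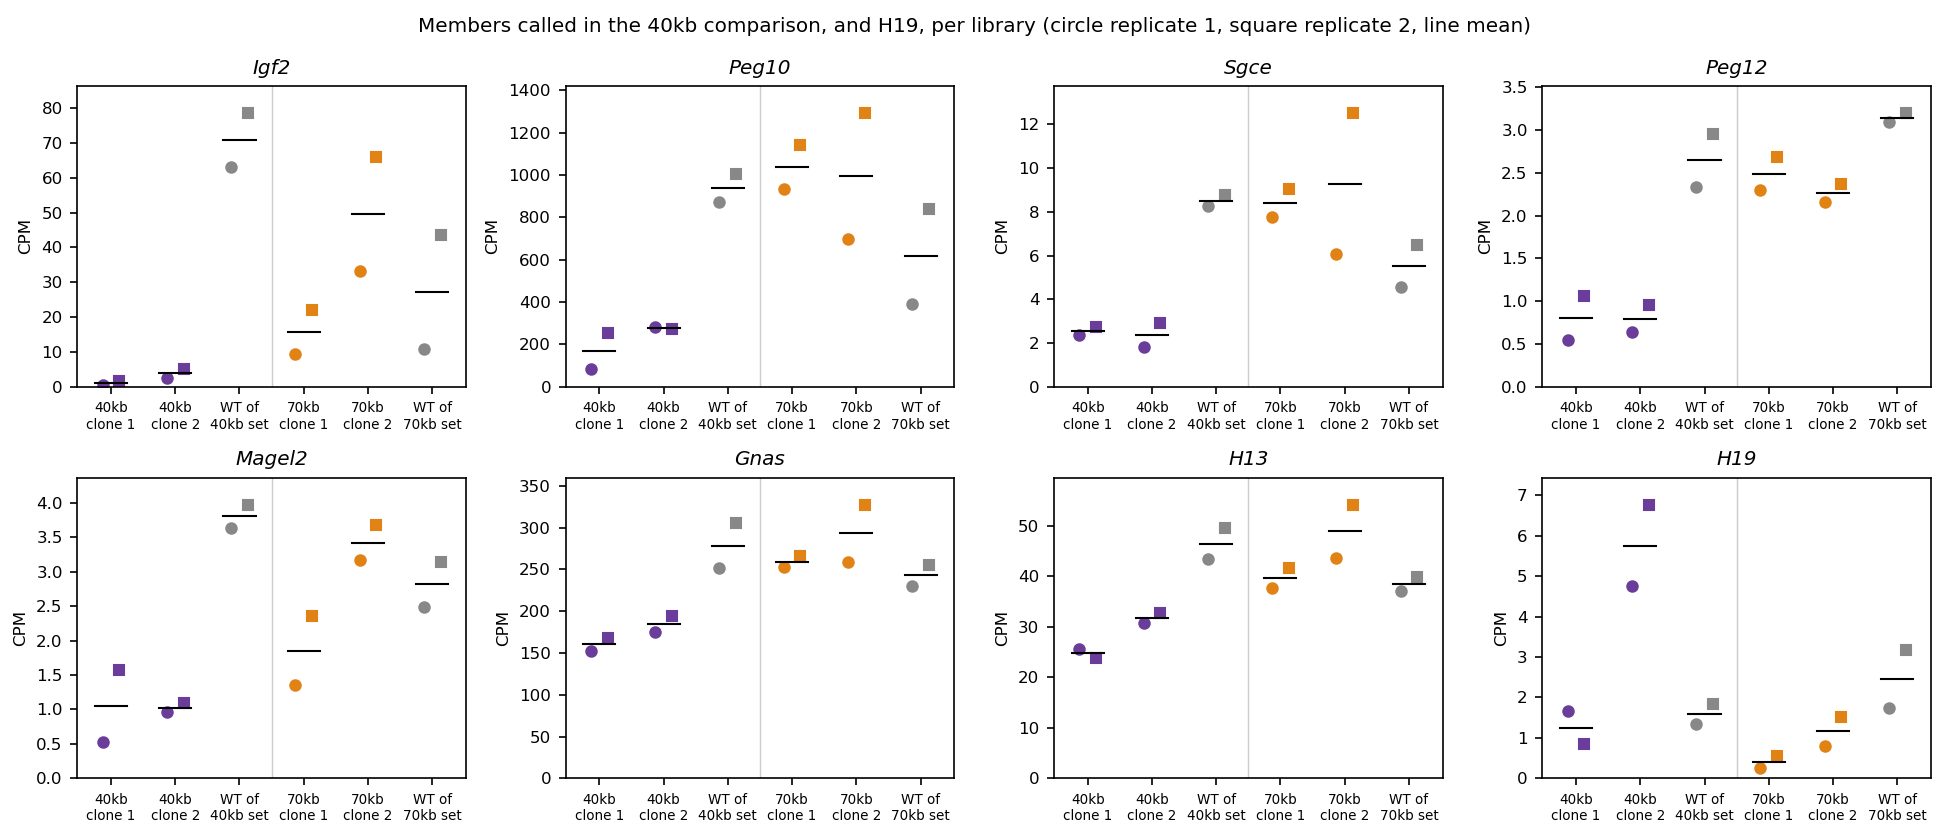
CPM (y axis, from 0) of the 7 members called in the 40kb comparison and of H19 in all 12 libraries, by clone and wild-type set (x axis); circles are replicate 1, squares replicate 2 and lines the mean of both. The purple 40kb points lie below the grey wild-type points of their set for all 7 called members, while the orange 70kb points overlap their wild type for 6 of the 7 and lie below it for Peg12.

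The remaining clusters held no call. In the Kcnq1 cluster, Cdkn1c, a maternally expressed inhibitor of cyclin-dependent kinases, had 17.2 and 14.5 CPM in 40kb clone 1 and 29.3 and 21.6 CPM in 40kb clone 2, against 28.5 and 37.8 CPM in wild type. The groups overlapped by 1 library of clone 2, and Cdkn1c was not called (log2 -0.68, SE 0.24, adjusted p = 0.114). Phlda2 and Ascl2, which act in placental growth and in trophoblast development, and Tssc4 had all 40kb libraries above wild type without a call. In means with SD (n = 4 for 40kb, n = 2 for wild type), Phlda2 averaged 56.7 ± 12.3 CPM in 40kb libraries, against 34.4 ± 0.795 CPM in wild type (log2 0.72, SE 0.26). Ascl2 averaged 2.38 ± 0.454 CPM in 40kb libraries, against 1.59 ± 0.181 CPM in wild type (log2 0.58, SE 0.28). For Tssc4 the means were 26.6 ± 1.08 CPM in the 40kb group and 22.8 ± 1.02 CPM in wild type (log2 0.22, SE 0.14). Slc22a18, a transporter, overlapped between the groups, at 2.92 ± 0.924 CPM in 40kb libraries and 2.17 ± 0.526 CPM in wild type (log2 0.43, SE 0.38).

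Peg3, a paternally expressed zinc finger gene, had 86.5 and 128 CPM in 40kb clone 1 and 109.6 and 141 CPM in 40kb clone 2, against 182 and 183 CPM in wild type. All 4 clone libraries lay below wild type, and the test missed the threshold, at log2 fold change -0.65 (SE 0.18, adjusted p = 0.0526). Usp29, which shares the Peg3 promoter region in the opposite direction, overlapped between the groups, at 1.66 ± 0.610 CPM in 40kb libraries (SD, n = 4) and 1.40 ± 0.122 CPM in wild type (SD, n = 2; log2 0.24, SE 0.44). Zim1, the maternally expressed zinc finger gene of the cluster, lay below wild type in all 40kb libraries and was not called, at 0.819 ± 0.236 CPM in the 40kb group and 1.53 ± 0.550 CPM in wild type (log2 -0.90, SE 0.44, adjusted p = 0.241). In the Dlk1-Meg3 cluster, Dlk1, a paternally expressed membrane ligand of the Notch family, had 0.571 and 1.03 CPM in 40kb clone 1 and 3.66 and 1.93 CPM in 40kb clone 2, against 2.84 and 3.80 CPM in wild type. Clone 1 alone lay below wild type in both replicates (log2 over both clones -0.88, SE 0.51, adjusted p = 0.312). Meg3, the maternally expressed noncoding RNA, averaged 271 ± 65.9 CPM in 40kb libraries (SD, n = 4), against 314 ± 80.5 CPM in wild type (SD, n = 2), a difference within the spread.

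Airn, the paternally expressed noncoding RNA that silences Igf2r on the same copy and overlaps it, had 0 counts in 3 of the 40kb libraries and 2 counts in the second replicate of clone 2, against 13 counts in each wild-type library. A count of 0 allows up to 3 counts. The adjusted p was 0.0543. Igf2r, the receptor that clears IGF2, averaged 168 ± 23.7 CPM in 40kb libraries (SD, n = 4), against 175 ± 26.9 CPM in wild type (SD, n = 2), with overlap.

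Nnat had 0.183 to 0.335 CPM in 40kb libraries, against 0.389 and 0.810 CPM in wild type, without overlap (log2 -1.44, SE 1.23, adjusted p = 0.507), and Grb10 overlapped (log2 -0.28, SE 0.80). Both genes were called between the 70kb clones, as given further on. Among the other clusters with a single tested gene, Plagl1, a zinc finger gene, had 0.320, 0.136, 0.371 and 0.391 CPM in 40kb libraries, against 0.343 and 0.683 CPM in wild type. Impact, a regulator of the kinase GCN2, had 301, 311, 284 and 329 CPM in 40kb libraries, all above the 245 and 242 CPM of wild type (log2 0.33, SE 0.31, adjusted p = 0.546). Zdbf2, which promotes growth after birth, had 191, 195, 131 and 145 CPM in 40kb libraries, against 157 and 153 CPM in wild type. Zrsr1, an intronless gene inside Commd1, had 11.7, 9.63, 8.88 and 9.14 CPM in 40kb libraries, all above the 8.63 and 7.36 CPM of wild type (log2 0.30, SE 0.18, adjusted p = 0.332). The overlapping pair Mest, a hydrolase family gene, and Copg2, a coatomer subunit gene, had log2 fold changes of 0.13 (SE 0.22) and 0.15 (SE 0.17). Copg2 had 109, 88.4, 67.5 and 79.7 CPM in 40kb libraries, against 83.7 and 71.6 CPM in wild type, with overlap.

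Over the 31 tested members, 17 did not overlap between the 40kb libraries and their wild type, 12 lower and 5 higher, which is 54.8% against 36.2% of all genes (19.7% lower, 16.4% higher). At an unadjusted p under 0.05 the members numbered 12, or 38.7%, against 23.5% of all genes. The 4 members below the filter had few counts: over 4 libraries of the 40kb allele against 2 of wild type, Kcnq1, a potassium channel gene, had 15 counts against 17, Rtl1, a placental gene, 8 against 5, Slc22a3, a cation transporter, 1 against 7, and Rasgrf1, an activator of Ras, 7 against 4.

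Genes that lie in or beside the imprinted clusters were counted as a comparison: 71 had a row and 57 were tested. In the 40kb comparison 6 fell and 1 rose, 12.3% against 6.43% of all genes, with a median log2 fold change of 0.11. By clone, 8 fell and 4 rose in clone 1, 21.1% against 14.9% of all genes (10.2% lower, 4.72% higher). In clone 2 none fell and Cobl was the 1 that rose, 1.75% against 3.19% of all genes (2.57% lower, 0.613% higher). Beside Peg10 and Sgce, Pon2, a paraoxonase, had 2.08, 4.37, 5.47 and 6.04 CPM in 40kb libraries, against 13.7 and 15.0 CPM in wild type (log2 -1.68, SE 0.35, adjusted p = 0.0234). Calcr, the calcitonin receptor of the same cluster, had 0.343, 1.41, 2.32 and 3.66 CPM in 40kb libraries, against 8.06 and 11.7 CPM in wild type (log2 -2.35, SE 0.60, adjusted p = 0.0390). Both genes fell together with the 2 members of that cluster, and none of their libraries overlapped. None of the other listed neighbours of that cluster was called in the 40kb comparison. Near Igf2 and H19, Lsp1, a leukocyte actin-binding protein, fell (log2 -3.71, SE 0.93, adjusted p = 0.0369), and Tnnt3, a troponin, had 0, 0, 4 and 0 counts in 40kb libraries, against 23 and 27 counts in wild type (adjusted p = 0.0204). Mas1, a receptor near Igf2r, had 2, 2, 0 and 1 counts in 40kb libraries, against 11 and 13 counts in wild type (adjusted p = 0.0386). It averaged 0.290 CPM in that wild type, against 0.0672 CPM in 70kb libraries and 0.0770 CPM in their wild type. Mas1 thus passed the low-count filter only through the group where it was high. The filter set the direction of its test, so this call among the 6 lower ones carries no weight. Cobl, beside Grb10, rose (log2 0.88, SE 0.19, adjusted p = 0.0251).

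Of 21 genes that set, keep or erase imprints, 20 were tested, 2 rose and none fell in the 40kb comparison, 10% against 6.43% of all genes, with a median log2 fold change of 0.24. Tet2, which oxidises methylated cytosine, had 301, 150, 147 and 197 CPM in 40kb libraries, against 100.7 and 82.7 CPM in wild type (log2 1.12, SE 0.26, adjusted p = 0.0289). Dnmt3l, the cofactor of methylation in the germ line, had 374, 332, 422 and 330 CPM in 40kb libraries, against 242 and 219 CPM in wild type (log2 0.66, SE 0.17, adjusted p = 0.0399). Neither overlapped between the groups. With both clones together the keepers of imprints were not called: the log2 fold change was 0.87 for Zfp57 (SE 0.25, adjusted p = 0.0553), 0.29 for Trim28 (SE 0.25) and 0.28 for Dnmt1 (SE 0.21). Dppa3, which guards methylation in the early embryo, had 7.26 and 28.6 CPM in 40kb clone 1 and 4.08 and 7.77 CPM in 40kb clone 2, against 46.3 and 32.8 CPM in wild type. Its clone libraries all lay below wild type, also without a call (log2 -1.73, SE 0.56, adjusted p = 0.0882). By clone, 5 of the 20 rose and 1 fell in clone 1, 30% against 14.9% of all genes (10.2% lower, 4.72% higher). Zfp57 was among the higher (log2 0.89, SE 0.22, adjusted p = 0.0240) and Tet3 was the lower (log2 -1.72, SE 0.25, adjusted p = 0.0056). In clone 2 none rose, and Dppa3 was the 1 that fell (log2 -2.74, SE 0.58, adjusted p = 0.0374), 5% against 3.19% of all genes.

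Some lists of markers of other cell types moved with the same comparison. Of the tested markers, 10 of 16 fell for fibroblasts, 6 of 8 for trophoblast, 3 of 6 for mesoderm and primitive streak, 2 of 14 for primitive endoderm, 1 of 7 for neural cells and 0 of 6 for germ cells (edgeR, with 2 germ cell genes at an unadjusted p under 0.05), and none rose. Of all genes 5.67% were called lower and 0.763% higher. The median log2 fold change over the primitive endoderm markers was 0.14, with 8 of 14 above 0. The summed level of 17 fibroblast markers was 15.2 to 63.1 CPM in 40kb libraries, against 313 and 408 CPM in wild type, and 2 to 4 of the 17 were at 0 in each 40kb library, against none in wild type. In wild type most of the fibroblast sum came from Tagln and from Acta2, smooth-muscle actin. Acta2 was 0.365 to 5.65 CPM in 40kb libraries, against 58.4 and 62.9 CPM in wild type. Tagln was 0.891 to 26.7 CPM in 40kb libraries, against 160 and 238 CPM in wild type. Dcn was 0 to 0.168 CPM in 40kb libraries, against 0.389 and 0.936 CPM in wild type, where Lum was at most 0.101 CPM. Thy1 and Twist1 overlapped between the groups. The 12 trophoblast markers summed to 23.0 to 51.2 CPM in 40kb libraries, against 439 and 580 CPM in wild type, where most of the sum came from the keratins Krt8 and Krt18. Krt19 and Krt7 also lay below wild type. Krt19 was 2.75 to 6.26 CPM in 40kb libraries, against 42.8 and 54.5 CPM in wild type. Krt7 was 0.495 to 2.06 CPM in 40kb libraries, against 12.9 and 14.1 CPM in wild type. Markers of the list other than these keratins were at low levels or did not fall. Cdx2 was 0 to 0.224 CPM in 40kb libraries, against 0.733 and 2.30 CPM in wild type, and Elf5 was at most 0.127 CPM in wild type. Plet1 overlapped, at 4.25 to 8.08 CPM in 40kb libraries, against 6.17 and 7.44 CPM in wild type. Tpbpa, Prl3d1 and Prl2c2 were at 0 in both groups. In each 40kb library 3 to 6 of the 12 were at 0, against 3 in wild type. The 13 naive pluripotency genes summed to 4642 to 5687 CPM in 40kb libraries, against 3008 and 3795 CPM in wild type. The largest part was Pou5f1, at 1048 to 1329 CPM in 40kb libraries, against 844 and 852 CPM in wild type. Of the 13, 15.4% were called and 61.5% did not overlap between the groups, against 6.43% and 36.2% of all genes. Nanog, Klf2, Klf5, Tfcp2l1 and Sox2 overlapped.

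Igf2 varied with these markers library by library. Within the 40kb set, and within the 70kb set, the order of the 6 libraries by Igf2 was the order by the fibroblast sum. That held in both sets for 1 of the 31 tested members and for 78 of 16636 genes (0.469%). With a score of 29 fibroblast and trophoblast markers as a covariate, 0 members were called in the 40kb comparison by edgeR, with 4 at an unadjusted p under 0.05, and the log2 fold changes of the 7 members lay between -0.17 for H13 and -1.42 for Peg12. The score ran from -2.20 to -0.71 in 40kb libraries, against 1.21 and 1.504 in wild type, so that score and allele cannot be told apart in this set.

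**Figure D3:**
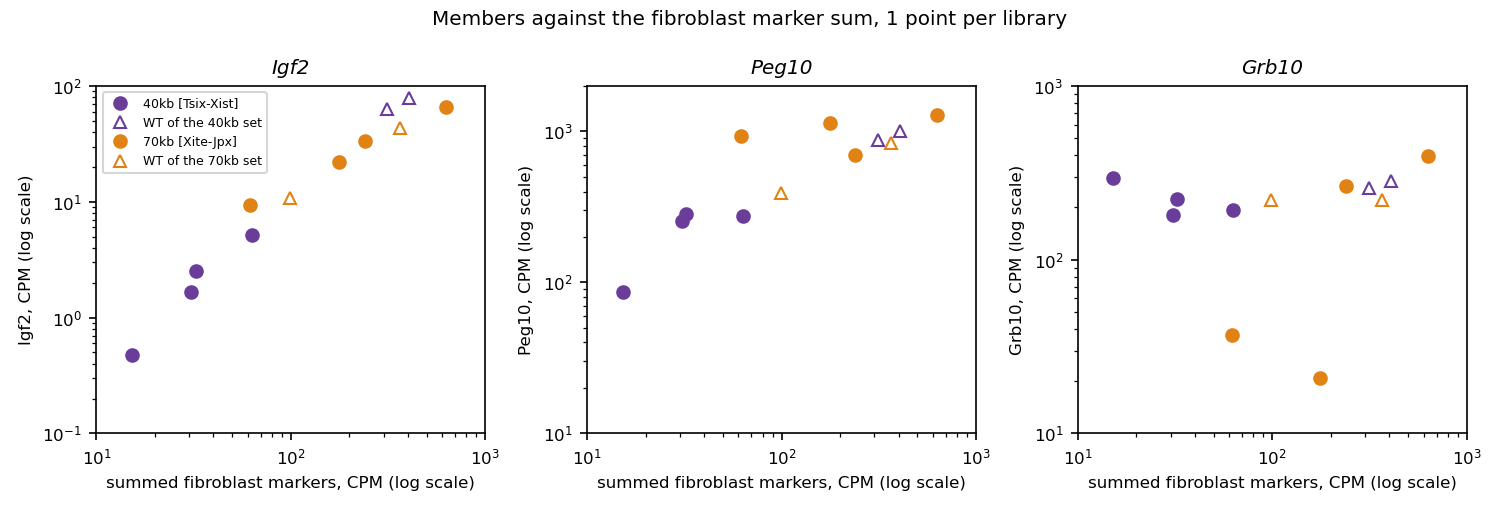
CPM of Igf2, Peg10 and Grb10 (y axes, log scale) against the summed CPM of 17 fibroblast markers (x axis, log scale), 1 point per library; filled circles are clones, open triangles wild type, purple the 40kb set and orange the 70kb set. Igf2 points climb with the marker sum across the plot, from 0.480 CPM at a sum of 15.2 CPM upward, while the 2 Grb10 points at 36.8 and 20.7 CPM stand apart from the other 10.

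Each clone of the 40kb allele was also set against wild type, both against the same 2 wild-type libraries. In clone 1, 12 members fell and none rose, where 14.9% of all genes were called, 10.2% lower and 4.72% higher: Igf2, Peg10, Sgce, Peg12, Magel2, Gnas, H13, Cdkn1c, Dlk1, Peg3, Ndn and Airn. In clone 2, 4 members fell and none rose, where 3.19% of all genes were called, 2.57% lower and 0.613% higher: Igf2, Sgce, Peg12 and Magel2. Sgce was at log2 -1.73 in clone 1 (SE 0.36) and -1.84 in clone 2 (SE 0.36), and Peg12 at -1.73 in both (SE 0.36 each). Igf2 was at -6.08 in clone 1 (SE 0.83) and -4.20 in clone 2 (SE 0.74), Peg10 at -2.46 in clone 1 (SE 0.48) and -1.75 in clone 2 (SE 0.47), and Dlk1 at -2.06 in clone 1 (SE 0.38) and -0.24 in clone 2 (SE 0.35). Between the clones themselves 0 members were called by edgeR, against 0.0661% of all genes (0.0481% lower, 0.018% higher), with 9 at an unadjusted p under 0.05 (29% against 16.6%), and DESeq2 called 3 (Dlk1, H19 and Mest). As clone 1 minus clone 2 in log2, H19 gave -2.19 (SE 0.48, adjusted p = 0.0911), Dlk1 -1.81 (SE 0.38, adjusted p = 0.0816) and Mest -0.68 (SE 0.18, adjusted p = 0.133). Mest had 93.4 and 115 CPM in 40kb clone 1, against 174 and 159 CPM in 40kb clone 2.

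The 40kb calls rested on the 2 wild-type libraries of that set and on counting libraries of the same clone separately. The allele was carried by 2 clones, and with counts summed per clone 0 members were called. Without wild-type replicate 1, 0 members were called, with adjusted p of 0.0747 to 0.0991 for the 7, and without wild-type replicate 2 also 0, with 0.159 to 0.295. All 7 kept log2 fold changes below 0.

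In the 70kb comparison 0 members were called, and 0% of all genes. DESeq2 called 0 members too, and 3 members had an unadjusted p under 0.05 in edgeR, 9.68% against 0.601% of all genes. H19 had 0.265 and 0.542 CPM in 70kb clone 1 and 0.811 and 1.53 CPM in 70kb clone 2, against 1.74 and 3.17 CPM in wild type (log2 -1.63, SE 0.72, adjusted p = 1.0). Cdkn1c had 60.1 and 42.0 CPM in 70kb clone 1 and 44.5 and 48.6 CPM in 70kb clone 2, against 35.6 and 29.96 CPM in wild type (log2 0.57, SE 0.25). Neither gene overlapped between the groups. Sgce had 7.74 and 9.05 CPM in 70kb clone 1 and 6.09 and 12.5 CPM in 70kb clone 2, against 4.56 and 6.47 CPM in wild type, with overlap (log2 0.68, SE 0.30).

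The 7 members that fell in the 40kb comparison did not share a direction in the 70kb comparison: 5 had a fitted log2 fold change above 0, and Peg12 and Magel2 below 0. Igf2 spanned 9.45, 22.1, 33.2 and 66.0 CPM in 70kb libraries, against 10.7 and 43.4 CPM in wild type, while the fibroblast sum ran from 61.8 to 633 CPM, against 98.8 and 365 CPM. Peg10 had 933, 1140.0, 696 and 1291 CPM in 70kb libraries, against 391 and 839 CPM in wild type (log2 0.72, SE 0.43). Peg12 had 2.30, 2.68, 2.16 and 2.37 CPM in 70kb libraries, all below the 3.09 and 3.20 CPM of wild type (log2 -0.40, SE 0.28). Magel2 had 1.35, 2.36, 3.16 and 3.69 CPM in 70kb libraries, against 2.49 and 3.14 CPM in wild type, and it overlapped. Gnas had 253, 266, 259 and 327 CPM in 70kb libraries, against 231 and 256 CPM in wild type. H13 had 37.7, 41.7, 43.6 and 54.1 CPM in 70kb libraries, against 37.1 and 39.8 CPM in wild type. Both overlapped between the groups.

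Of all 31 tested members 6 did not overlap between the 70kb libraries and their wild type, 19.4% against 5.48% of all genes (3.08% lower, 2.4% higher): H19, Peg12, Ube3a and Mest lower, Cdkn1c and Dlk1 higher. Dlk1 had 4.65, 4.77, 5.44 and 6.69 CPM in 70kb libraries, against 3.94 and 3.48 CPM in wild type (log2 0.54, SE 0.52). Airn had 0.0883 and 0.0813 CPM in 70kb clone 1 and 0.298 and 0.974 CPM in 70kb clone 2, against 0.217 and 0.208 CPM in wild type. Clone 1 lay below wild type for Airn and clone 2 above it. Plagl1 had 0.294 and 0.190 CPM in 70kb clone 1 and 0.757 and 0.843 CPM in 70kb clone 2, against 0.435 and 0.987 CPM in wild type. Impact had 643, 318, 302 and 265 CPM in 70kb libraries, against 392 and 225 CPM in wild type, and the first replicate of clone 1 stood apart. Peg3 had 192, 145, 153 and 181 CPM in 70kb libraries, against 198 and 158 CPM in wild type. Copg2 had 74.9, 68.8, 68.4 and 73.8 CPM in 70kb libraries, against 74.8 and 65.7 CPM in wild type. Zdbf2 had 92.3, 141, 112 and 137 CPM in 70kb libraries, against 113 and 183 CPM in wild type, and Zrsr1 9.66, 10.5, 8.71 and 9.95 CPM, against 9.20 and 9.33 CPM. These 4 overlapped between the groups, with log2 fold changes from -0.29 for Zdbf2 to 0.07 for Zrsr1. The 4 members below the filter had, over 4 libraries of the 70kb allele against 2 of wild type, 21 counts against 13 (Kcnq1), 9 against 3 (Rtl1), 11 against 1 (Slc22a3) and 10 against 2 (Rasgrf1). No cluster neighbour of 57 and no imprint maintenance gene of 20 was called, and 0 of either list had an unadjusted p under 0.05 in edgeR.

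The other members of the 70kb comparison are given as means with SD (n = 4 for 70kb, n = 2 for wild type). Mest averaged 140.4 ± 12.98 CPM in 70kb libraries, against 155 ± 0.149 CPM in wild type (log2 -0.15, SE 0.22). Ube3a, also lower in every 70kb library, stood at 95.5 ± 4.61 CPM and in wild type at 102 ± 1.32 CPM (log2 -0.10, SE 0.13). Both differences are smaller than their standard error. In the Kcnq1 cluster the 70kb group had 54.7 ± 12.8 CPM of Phlda2, against 43.3 ± 14.19 CPM in wild type (log2 0.34, SE 0.26). Slc22a18 had 2.09 ± 0.563 CPM in 70kb libraries and 1.52 ± 0.682 CPM in wild type. The log2 fold change was 0.16 for Ascl2 (SE 0.27) and -0.02 for Tssc4 (SE 0.14). Meg3 had 273 ± 83.4 CPM in 70kb libraries and 324 ± 25.5 CPM in wild type, and Igf2r 161 ± 32.4 CPM in 70kb libraries and 145 ± 28.7 CPM in wild type. Ndn, Mkrn3, Usp29 and Zim1 had log2 fold changes from -0.18 for Ndn to 0.07 for Mkrn3, each smaller than its standard error, and all overlapped.

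The difference between the effects of the 2 alleles was tested directly. By edgeR 0 members and 0% of all genes were called, with 10 members at an unadjusted p under 0.05, 32.3% against 12.8% of all genes, while DESeq2 called 7 members. As 40kb minus 70kb effect in log2, Sgce gave -2.47 (SE 0.42, adjusted p = 0.169), Peg10 -2.78 (SE 0.60, adjusted p = 0.169) and Igf2 -5.13 (SE 1.18, adjusted p = 0.169). H19 gave 2.76 in the other direction (SE 1.06, adjusted p = 0.278). A difference between the alleles thus passed the threshold in DESeq2 and not in edgeR.

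Between the wild-type sets, 0 members and 0% of all genes were called by edgeR, 0 members had an unadjusted p under 0.05 (2.37% of all genes), and DESeq2 called 0. The libraries still differed in level: Igf2 had 63.0 and 78.4 CPM in wild type of the 40kb set, against 10.7 and 43.4 CPM in wild type of the 70kb set, a 7.32-fold range over the 4 libraries. Over the members 13 did not overlap between the sets, 41.9% against 40.2% of all genes (21.2% lower, 19% higher). Set against the 2 wild-type libraries of the other set, the 40kb allele had 0 called members by edgeR, with 13 at an unadjusted p under 0.05.

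Between clones of 1 allele, calls on members were found in the 70kb set. Of 16636 genes 2 were called between its clones, 0.012% (0.00601% each way), and both were members, Grb10 and Nnat. Since the members were chosen with earlier results of these data known, that both calls fell on members carries no weight. Grb10 (ENSMUSG00000020176.10), a maternally expressed adaptor that restrains growth factor signalling, had 36.8 and 20.7 CPM in 70kb clone 1, against 264 and 395 CPM in 70kb clone 2. Wild type of that set had 222 and 219 CPM, the 40kb clones 295, 181, 223 and 194 CPM, and their wild type 259 and 285 CPM. Clone 1 thus lay below all other 10 libraries. The log2 difference, clone 1 minus clone 2, was -3.52 (SE 0.32, adjusted p = 0.0036), 11.5-fold lower in clone 1. Against wild type Grb10 fell in clone 1 (log2 -2.94, SE 0.31, adjusted p = 0.0175), the only gene called of 16636 (0.00601%), and it was not called in clone 2, where 0% of genes were (log2 0.58, SE 0.29, adjusted p = 1.0).

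Nnat (ENSMUSG00000067786.9), paternally expressed and encoding neuronatin, a small membrane protein, had 9.25 and 11.9 CPM in 70kb clone 1, against 0.216 and 0.579 CPM in 70kb clone 2. Wild type of that set had 1.11 and 2.26 CPM, the 40kb clones 0.183, 0.190, 0.173 and 0.335 CPM, and their wild type 0.389 and 0.810 CPM. Clone 1 lay above all other 10 libraries, and clone 2 below both wild-type libraries of its set. The log2 difference, clone 1 minus clone 2, was 4.72 (SE 0.55, adjusted p = 0.0264), 26.4-fold higher in clone 1. Neither clone was called against wild type: the log2 fold change was 2.65 in clone 1 (SE 0.48, adjusted p = 0.860) and -2.07 in clone 2 (SE 0.53, adjusted p = 1.0).

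**Figure D4:**
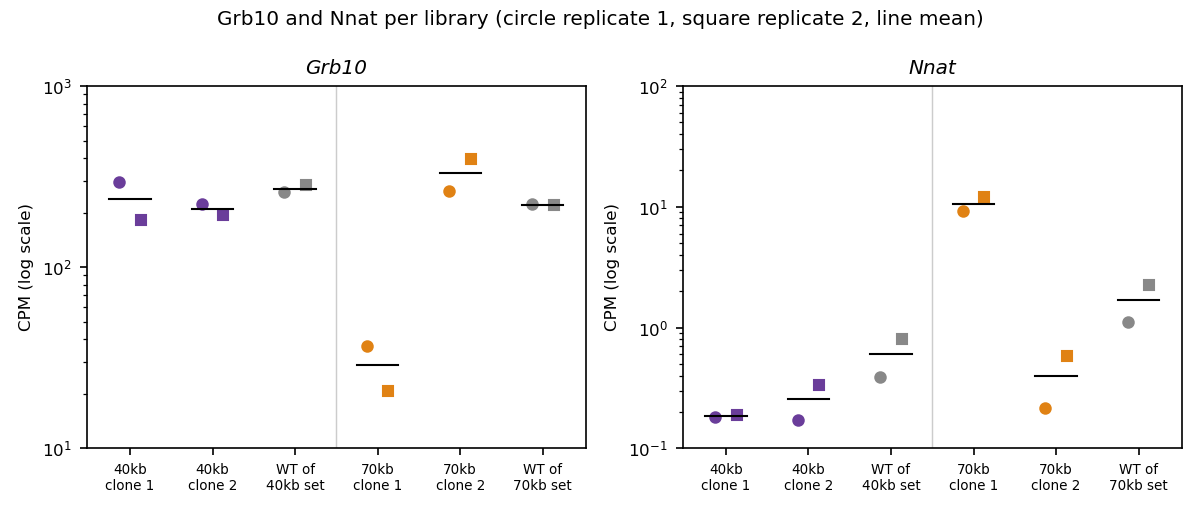
CPM (y axis, log scale) of Grb10 and Nnat in all 12 libraries by clone and wild-type set (x axis); circles are replicate 1, squares replicate 2 and lines the mean of both. The 2 libraries of 70kb clone 1 are the lowest for Grb10, at 36.8 and 20.7 CPM, and the highest for Nnat, at 9.25 and 11.9 CPM.

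Neighbours of the 2 genes were looked at for their position. Blcap, in whose intron Nnat lies, had 34.2 and 22.4 CPM in 70kb clone 1, against 33.3 and 32.2 CPM in 70kb clone 2, and overlapped (log2 -0.21, SE 0.21, adjusted p = 0.799). Ddc, beside Grb10, had 9.48 and 9.16 CPM in 70kb clone 1, against 9.90 and 5.66 CPM in clone 2 (log2 0.26, SE 0.30, adjusted p = 0.828), and Cobl 90.9 and 72.1 CPM in 70kb clone 1, against 60.3 and 64.1 CPM in clone 2 (log2 0.39, SE 0.18, adjusted p = 0.537). No called difference was seen in these 3 genes. The fibroblast sum was 61.8 and 177 CPM in 70kb clone 1, against 240 and 633 CPM in 70kb clone 2. In wild type of that set the sum was 98.8 and 365 CPM. Its part in the differences of Grb10 and Nnat was not tested.

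Leaving out 1 library of either 70kb clone in turn kept Grb10 called in all 4 cases (adjusted p = 0.0056 to 0.0356) and lost Nnat in all 4 (adjusted p = 0.0649 to 0.170). With the replicate number as a block, chosen after seeing the data, 3 members (Igf2, Grb10 and Nnat) and 240 genes were called between the 70kb clones, with adjusted p of 0.0052 for Grb10 and 0.0020 for Nnat. DESeq2 called Grb10 and Nnat among 176 genes.

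Across the 31 tested members, 13 did not overlap between the 70kb clones (41.9%, against 41.1% of all genes, 20.4% lower and 20.8% higher) and 18 between the 40kb clones (58.1%, against 45.3%, 23.4% lower and 21.9% higher). Other members with an unadjusted p under 0.05 between the 70kb clones and no call were Usp29, with a log2 difference of -1.07 (SE 0.34), H19 with -1.52 (SE 0.54), Plagl1 with -1.72 (SE 0.57), Airn with -2.86 (SE 0.78), Igf2 with -1.65 (SE 0.66) and Impact with 0.76 (SE 0.30).

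Promoter sequences were set beside these results because ZFP57 binds the letters TGCCGC when they are methylated, and such letters mark many regions that carry a parental imprint. In RefSeq's promoters on GRCm38.p6 (250 bases before to 50 after a start), 28 of the 35 members had 39 promoters. TGCCGC or its reverse complement GCGGCA was found in 10 of the 39 (25.6%), against 11.6% of all 32851 promoters. Of these 10, 2 are Mest windows that lie 3 bases apart and hold the same matches. Counted once per gene, 9 of 28 members held a match (32.1%), against 13.1% of 27025 genes. The median number of CG pairs was 17 per member promoter, against 7 over all promoters. Shown first are the promoters of Nnat and Grb10, the members called between the 70kb clones, and then those of Zdbf2 and Mest, which held the most matches; each is written on the strand of its gene, and capitals mark the matched letters.
Nnat promoter, chr2:157559828-157560127, plus strand: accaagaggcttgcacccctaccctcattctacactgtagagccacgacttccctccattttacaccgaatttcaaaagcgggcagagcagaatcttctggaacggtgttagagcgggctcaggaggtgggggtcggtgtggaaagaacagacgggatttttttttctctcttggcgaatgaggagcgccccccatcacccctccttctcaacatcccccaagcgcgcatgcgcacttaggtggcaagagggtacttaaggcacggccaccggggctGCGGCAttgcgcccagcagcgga
Grb10 promoter, chr11:12037371-12037670, minus strand: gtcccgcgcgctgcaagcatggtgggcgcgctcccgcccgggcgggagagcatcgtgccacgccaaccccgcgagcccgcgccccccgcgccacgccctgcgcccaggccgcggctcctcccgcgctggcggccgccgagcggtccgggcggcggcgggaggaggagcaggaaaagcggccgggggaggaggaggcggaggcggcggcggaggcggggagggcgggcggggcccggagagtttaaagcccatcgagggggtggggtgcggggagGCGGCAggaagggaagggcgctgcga
Grb10 promoter, chr11:12027922-12028221, minus strand: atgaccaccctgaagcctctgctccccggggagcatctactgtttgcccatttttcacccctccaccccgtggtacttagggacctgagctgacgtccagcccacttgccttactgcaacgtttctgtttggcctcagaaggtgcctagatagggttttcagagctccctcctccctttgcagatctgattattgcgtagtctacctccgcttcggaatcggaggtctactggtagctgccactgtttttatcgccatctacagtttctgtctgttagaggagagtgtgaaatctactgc
Zdbf2 promoter, chr1:63200108-63200407, plus strand: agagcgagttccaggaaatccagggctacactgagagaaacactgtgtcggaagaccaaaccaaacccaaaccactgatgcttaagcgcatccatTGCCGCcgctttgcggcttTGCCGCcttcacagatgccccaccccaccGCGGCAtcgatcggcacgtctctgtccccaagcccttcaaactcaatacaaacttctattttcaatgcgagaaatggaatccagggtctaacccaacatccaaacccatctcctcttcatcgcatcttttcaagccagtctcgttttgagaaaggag
Mest promoter, chr6:30737800-30738099, plus strand: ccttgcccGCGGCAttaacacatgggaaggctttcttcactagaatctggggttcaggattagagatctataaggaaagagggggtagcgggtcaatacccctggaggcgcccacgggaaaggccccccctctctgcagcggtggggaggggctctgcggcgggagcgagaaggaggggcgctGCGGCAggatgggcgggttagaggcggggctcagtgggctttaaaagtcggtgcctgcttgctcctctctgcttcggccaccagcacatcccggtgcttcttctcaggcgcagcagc

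Nnat and the first Grb10 promoter each held 1 match, and the second Grb10 promoter held none. Zdbf2 held 3 matches in the window shown and none in its other promoter, and Mest 2 in the window shown and none in the promoter farther upstream. A match describes the letters of these windows only, and neither methylation nor binding was measured.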

How the data were processed

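RNA was measured in 12 libraries by polyA RNA-seq with a stranded kit, per the labels' protocols. The authors deposited a table of raw read counts per gene for all 12, and the submitters' processing notes name STAR, edgeR and the build mm9. The folding maps of the same series were not used here.

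Symbols were matched to 32620 of 37310 identifiers. The members and lists were chosen with earlier results of these data known. All members could be named: those called in any contrast, and per cluster the tested member with the smallest unadjusted p in the 40kb comparison, get each library's value, and the others group values. Cluster neighbours and maintenance genes were named where called, at most 8 a list, and others only for their position or role, after their values were seen. The result of 1 gene is not reported here. Promoters shown are of members with the motif, by number of matches or because the member was called between clones. Counts were fitted with edgeR 4.0.16 in R 4.3.3 (filterByExpr, TMM, quasi-likelihood test, Benjamini-Hochberg over all tested genes). The group fit used 4 group means on 12 libraries (8 residual degrees of freedom), and the clone fit 6 means (6 residual degrees of freedom). DESeq2 1.42.0 was an alternative. Totals of 34514493 to 46605508 counts set the precision, and a count of 0 allows up to 3. The code was tested on simulated data.

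In the 70kb set libraries with the same replicate number deviated together (correlations of 0.649, 0.258 and 0.204 between clone 1 and wild type, clone 2 and wild type, and the clones). The numbers thus pair them, and the blocked values stand beside the clone result. In this set each number also matches a B code of the labels, B13 for replicate 1 and B14 for replicate 2. Other alternatives were other size factors and filters, other wild-type libraries, counts summed per clone, a marker score as covariate, each clone alone, and each library left out. Promoters are RefSeq's on GRCm38.p6, and member coordinates were not converted between builds.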

Additional observations from a re-analysis of the deposited data

Results flagged for a closer look

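In 5 cases 1 of the 4 libraries of an allele lay far from the other 3 by Dixon's test (gap to the nearest library over the whole range), which chance gives in about 1 in 20 groups. In the 40kb libraries these were Peg10 (0.856), Ube3a (0.831), Nnat (0.897) and Airn, where 1 library held all of the counts (1). In the 70kb libraries it was Impact (0.861), whose first replicate of clone 1 had 643 CPM. The called differences between the 70kb clones were -3.52 for Grb10 and 4.72 for Nnat, as log2 of clone 1 minus clone 2.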

How the results depend on the processing

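The 7 calls of the 40kb comparison became 8 with RLE size factors, 9 with DESeq2 (1844 genes, against 1070), 9 without a filter, 7 at a mean of at least 50 counts, 8 on the 6 libraries of the set and 10 against all 4 wild-type libraries. They became 0 against the wild type of the other set, 0 with counts summed per clone (3 genes), and 0 once the marker score entered as covariate (0 genes). Clone 1 alone gave 12 and clone 2 alone 4. Leaving out 1 library gave 0 to 8, with 0 without either wild-type library, while the genes called numbered 527 without replicate 1 of clone 1, 277 without its replicate 2 and 279 without replicate 1 of clone 2. The block by replicate number gave 8 (1447 genes) and the block by the B code in the labels 7 (357 genes, 5 members shared; Magel2 at adjusted p = 0.0902 and H13 at 0.0538 in edgeR lost their calls). Same-numbered libraries of the 40kb set showed little shared deviation (correlations of 0.053, -0.083 and 0.170, the last between the clones). There the B codes do not follow the numbers: replicates 1 and 2 are B1 and B2 in clone 1, B5 and B6 in clone 2, and B2 and B6 in wild type. Replicate 2 of clone 1 thus shares its code with wild-type replicate 1. Whether libraries of the 40kb set with the same B code deviated together was not tested separately. The 70kb comparison gave 0 except 1 for clone 1 alone, Grb10. The difference between the alleles gave 7 with DESeq2 (448 genes), 1 without a filter and 0 with any library left out. Between the 40kb clones DESeq2 gave 3 (555 genes), no filter 7 (1317 genes), the block 3 (380 genes, added after seeing the data), and leaving out 1 library 0 to 5. Between the 70kb clones no filter gave 6 (741 genes), the block 3 (240 genes), and leaving out 1 library 1 to 1, which was Grb10. The wild-type sets gave 0 throughout. The cause of these changes was not tested. No called value changed sign. Of members not called, 17 of 24 in the 40kb comparison and 20 of 31 in the 70kb comparison changed sign under some alternative. Low counts limit Airn and the 4 untested members.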
